A study of Mus with 2 samples.

Results

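The genes described here are those of MHC class I antigen presentation and the immunoproteasome. They comprise H2-K1, H2-D1, B2m, Tap1, Tap2, Tapbp, Psmb8, Psmb9, Psmb10 and Nlrc5. Each was found through the transcript accession of its probes, and all 10 were measured, by 12 of the 39429 probes on the array. In all, 20144 genes had a matched probe. The members were listed by name as a gene family. BMDMs, macrophages grown from mouse bone marrow, were prepared from male C57BL6/J mice, 10 weeks old per the study's methods, with 10 ng/mL of M-CSF for 7 d. They were then kept under M2 conditions, that is with 10 ng/mL of IL-4, for 24 h. The DMSO group received the solvent and the GW4064 group received 10 µM GW4064, a synthetic agonist of the bile acid receptor FXR, during the same 24 h. Both groups thus shared the strain, the M-CSF and the IL-4. Each group was 1 sample on 1 array, and how many animals gave the marrow for each culture is not given in the sources used here. No group without IL-4 or with interferon was analysed here.

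MHC class I molecules carry peptides from inside the cell to its surface, where CD8+ T cells and NK cells read them. A heavy chain, in this strain H2-K or H2-D, pairs with the light chain beta-2 microglobulin. The peptides are cut by the proteasome, moved into the endoplasmic reticulum by the transporter made of TAP1 and TAP2, and loaded with the help of tapasin. In many immune cells, and in most cells given interferon gamma, a form of the proteasome with other catalytic subunits, the immunoproteasome, takes the place of the constitutive form. MHC class II molecules carry peptides from engulfed material to CD4+ T cells, use a separate loading machinery and are under the control of a separate transactivator.

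The difference between the groups was small for every member. It lay between -0.17 (Tapbp) and 0.21 (Psmb10) on the log2 scale, GW4064 minus DMSO, with a median of -0.060. Class II genes measured on the same arrays had a median of -0.71. That median is the value of Ciita, read at 1 dim spot that was not well above background with GW4064. With only probes above background on both arrays the class II median was -0.76. Of the 10 members, 0 reached 2-fold in either direction. Of all 13532 genes measured, 2.04% reached 2-fold as an increase and 2.71% as a decrease, so that 0 of 10 is close to these shares. At 1.5-fold the count was also 0 of 10 each way, against 4.39% of all genes as an increase and 5.56% as a decrease. Even at a log2 difference of 0.32 in size, 0 members were counted either way, against 9.84% and 10.6% of all genes. By sign alone, 3 members were higher and 7 lower on the GW4064 array, against 51.6% and 48.2% of all genes.

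With 1 array per group there was no replicate error and no test. The spread that the files do give is technical. Of the probes printed 10 times, 227 were above background at every spot, and the SD of the log2 difference over their copies had a median of 0.076. The scanner software also wrote an error for each spot. It was 10.0% of the signal on both arrays at every member probe except the dim second Nlrc5 probe. On both arrays together this came to 0.20 on the log2 scale. An equal share at each bright probe is not a spread measured at that spot, so below it is only a common measure of size. Neither the copies nor this error gives the spread between cultures, and the precision of each value below is limited by having so few arrays. The signals given below are those of the scanner files before scaling between arrays. The 75th percentile of all spots was a signal of 1209 with DMSO and 1265 with GW4064. An equal signal on both arrays is therefore a slightly negative log2 difference. No spot was saturated, and every member probe was well above background on both arrays.

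The heavy chains and the light chain were among the brighter probes. The first H2-K1 probe, printed 10 times, had a mean signal of 99624 with DMSO, with copies from 97472 to 103004. With GW4064 it had a mean of 103503, with copies from 100969 to 106520. The copies of the arrays overlapped. After scaling, the log2 difference was -0.011 ± 0.033 (SD over 10 copies of 1 probe), and 6 copies were lower and 4 higher. The second H2-K1 probe, read at 1 spot, had signals of 53166 and 52303 and a log2 difference of -0.089. H2-D1, the other classical heavy chain of this strain, had signals of 108685 and 107671 and a log2 difference of -0.079. Its spot had 2 others within 300 µm that differed 8-fold or more between the arrays. B2m, which encodes the light chain that every class I heavy chain needs, had signals of 115574 and 119302 and a log2 difference of -0.020. These differences were all smaller than the software's error of 0.20. Class I heavy chain genes resemble each other closely in sequence, and how far a probe for one also binds transcripts of another could not be told apart here, since no probe sequence was used.

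**Figure D1:**
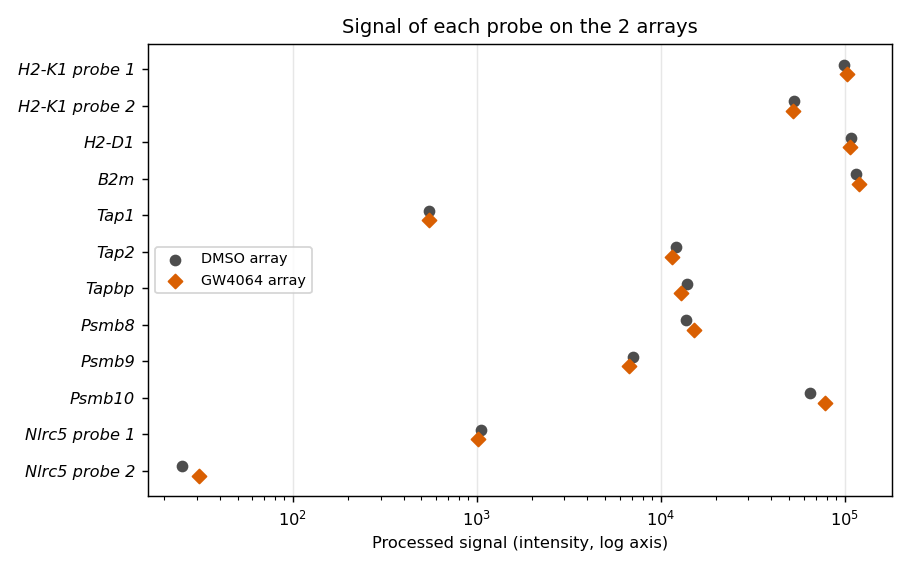
Processed signal (intensity, log axis) of the 12 probes on the DMSO array (grey circles) and on the GW4064 array (orange diamonds), 1 array per group, with the mean over copies for probes printed 10 times. Each pair of points lies close together, from about 25 for the second Nlrc5 probe to 115574 and 119302 for B2m.

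Tap1, Tap2 and Tapbp, which serve peptide transport and loading, each had a slightly negative value. Tap1, which encodes one chain of the peptide transporter, was printed 10 times and had a mean signal of 552 with DMSO, with copies from 528 to 579. With GW4064 the mean was 551, with copies from 506 to 605, a range that included all copies of the DMSO array. Its log2 difference was -0.070 ± 0.065 (SD over 10 copies of 1 probe), and 9 of 10 copies were lower. Tap2, its partner, had signals of 12110 and 11576 at 1 spot and a log2 difference of -0.13. Tapbp, which encodes tapasin, the protein that holds the empty class I molecule at the transporter, had signals of 13891 and 12885 and a log2 difference of -0.17, the lowest of the members. Of all genes measured, 18.8% had a lower value than Tapbp. None of these values passed the software's error.

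The immunoproteasome subunits had values of both signs. Psmb8 encodes the subunit that takes the place of PSMB5, and had signals of 13767 and 15129 with a log2 difference of 0.070, or -0.10 when the arrays were centred on spike-in RNA. Psmb9, whose product takes the place of PSMB6, had signals of 7100 and 6717 and a log2 difference of -0.15, at a spot that also had 2 others within 300 µm differing 8-fold or more. Psmb10, whose product takes the place of PSMB7, had signals of 64990 and 78643. Its log2 difference of 0.21, a 1.16-fold higher value, was the highest of the members and the only one of the 12 probes past the software's error, by less than 0.01. Each of these genes was read at 1 spot. Among 9 probes printed 10 times with a signal within 2-fold of that of Psmb10, the SD over copies was 0.062 at the median and 0.11 at most. The value of Psmb10 was 0.12 after quantile normalization and 0.036 when the arrays were centred on spike-in RNA. In all, 2182 of the 13532 genes had a higher value than Psmb10.

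**Figure D2:**
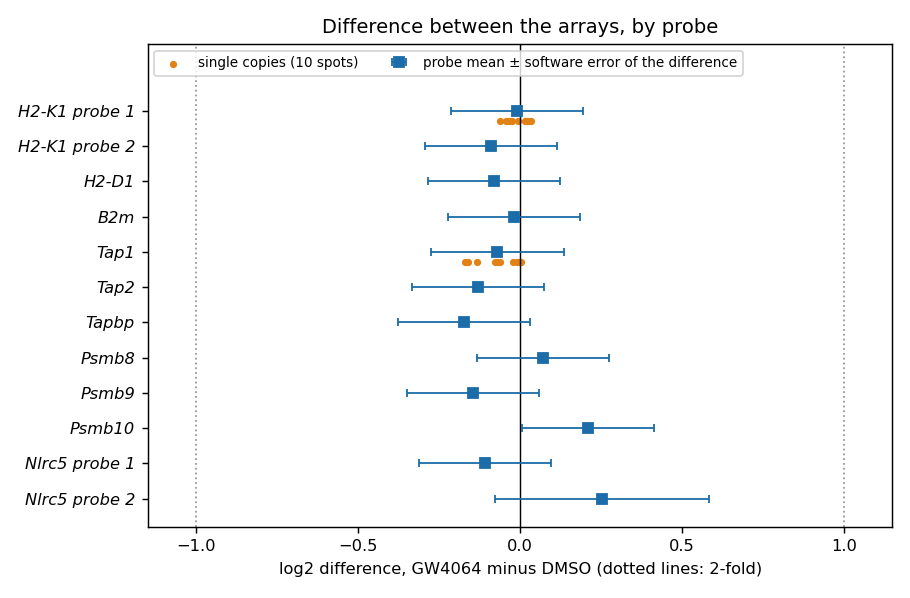
log2 difference between the arrays (GW4064 minus DMSO) for each of the 12 probes, with bars for the software's error of the difference, orange points for the single copies of the probes printed 10 times, and dotted lines at 2-fold. All probes lie between -0.17 and 0.25, and the copies of H2-K1 and Tap1 lie closer together than the error bars are wide.

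Because constitutive and immune subunits compete for the same places in the proteasome, each immune subunit was set against its constitutive counterpart, a comparison that shifts of a whole array do not touch. Psmb6 had a log2 difference of 0.082, so that Psmb9 changed by -0.23 relative to it, with a combined software error of 0.29. Psmb7 had a log2 difference of -0.0074, so that Psmb10 changed by 0.22 relative to it, with an error of 0.29. The probes for Psmb5 had log2 differences of 0.12 and 0.19, and Psmb8 changed by -0.083 relative to their mean, with an error of 0.25. The pairs differed in sign, and none passed its error. Psme1 and Psme2, the subunits of the activator that is often made together with the immunoproteasome, had log2 differences of 0.058 and 0.031. Psme1 was printed 10 times and its SD over copies was 0.083.

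Nlrc5 encodes the transactivator that binds at the promoters of class I genes, and its probes disagreed. The brighter probe had signals of 1048 and 1018 and a log2 difference of -0.11. The dimmer probe had signals of 24.8 and 30.9, close to the lowest signals well above background (15.7 with DMSO and 15.1 with GW4064), and a log2 difference of 0.25 with a software error of 0.33. It too had 2 neighbours that differed 8-fold or more. The mean of 0.073 was -0.10 when centred on spike-in RNA, -0.14 after a normexp background correction and -0.11 when the brightest probe alone was taken. No direction for Nlrc5 can be taken from these arrays. Ciita, the transactivator of class II genes and a relative of Nlrc5, had a signal of 23.6 with DMSO and was not well above background with GW4064. It was at least 1.64-fold lower there, read at 1 dim spot, a log2 difference of -0.71 that became -0.35 after the normexp correction.

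The class II genes differed more between the arrays than the members did. Of 12 genes listed for class II and its loading, 9 were measured, 8 of them lower on the GW4064 array. Of these, 6 were 1.5-fold or more lower, against 5.56% of all genes, and 1 was 2-fold or more lower. H2-Ab1, the beta chain of the I-A molecule, had signals of 44403 and 23612 on its first probe and 42337 and 20853 on its second. These gave log2 differences of -0.98 and -1.09. H2-Eb1, the beta chain of I-E, had signals of 25103 and 13787 and a log2 difference of -0.93. H2-Aa, the alpha chain of I-A, had signals of 4817 and 3127 and a log2 difference of -0.69. Each of these exceeded the software's error of 0.20 several times over, which no member did.

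Cd74, the invariant chain that guards the groove of new class II molecules, had signals of 52282 and 32249 and a log2 difference of -0.76. H2-DMa, one chain of the peptide exchange factor, had signals of 5063 and 3004 and a log2 difference of -0.82, at a spot with 3 neighbours that differed 8-fold or more, and its partner H2-DMb1 had signals of 19671 and 15433 and a log2 difference of -0.42. Ctss, the protease that trims the invariant chain, differed by -0.23. H2-Ob, part of an inhibitor of that exchange, was at the edge of detection, with a value of 0.017 from a bound. H2-Eb2, H2-DMb2 and H2-Oa were not well above background on either array. Of the 9 measured genes, 8 had a value below that of the lowest member, and H2-Ob was the exception. After the normexp correction 7 of 9 did. The median of the class II list was 0.65 below that of the members on the log2 scale, and between 0.53 and 0.70 below it over the 11 other settings and the one used here. The value of 0.70 came from only probes above background on both arrays, which leaves out Ciita and H2-Ob.

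**Figure D3:**
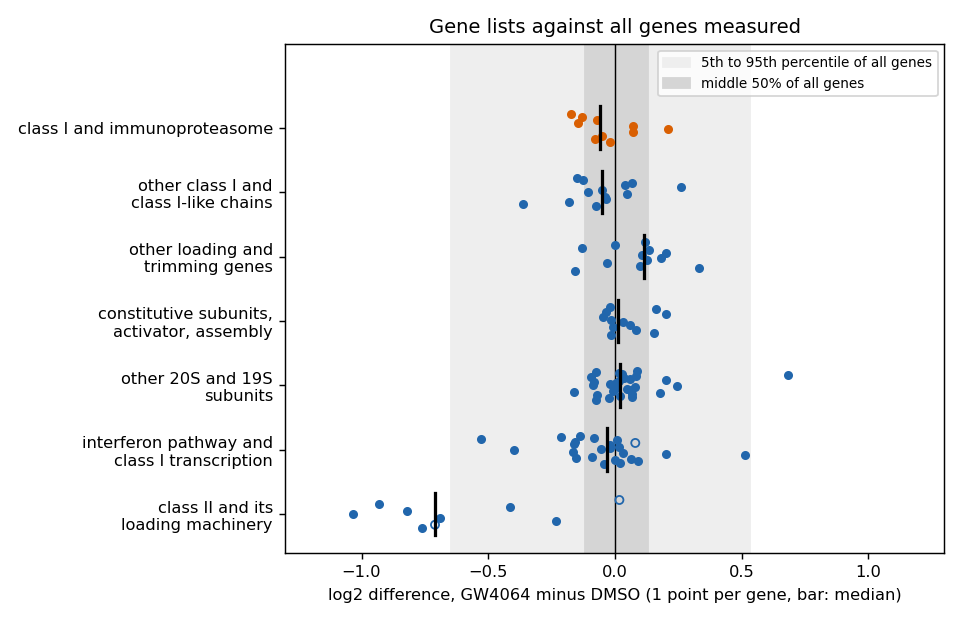
log2 difference (GW4064 minus DMSO) of each measured gene in 7 lists, with a black bar at the median of each list, open circles for genes with a probe that is a bound, and grey bands for the middle 50% and the 5th to 95th percentile of all 13532 genes. The class II list lies mostly left of the bands with a median of -0.71, while the 10 class I and immunoproteasome genes lie between -0.17 and 0.21.

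Several members share their place in the genome with class II genes. In the order of the GRCm38.p6 annotation, 7 of the 10 members lie on chromosome 17, in the MHC. There are 90 protein-coding genes from Tapbp to H2-D1, of which 72 were measured. The annotation is of another build than the array design, so that only the order is given. Nlrc5 and Psmb10 lie on chromosome 8 and B2m on chromosome 2. Psmb9, Tap1, Psmb8 and Tap2 follow each other directly as genes 19 to 22, between H2-DMb1 (gene 18) and H2-Ob (gene 23). Psmb9 and Tap1 are known to be read in opposite directions from a shared promoter, and had log2 differences of -0.15 and -0.070.

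Along this order 4 members lay among class II genes. On one side of them, H2-DMa had -0.82 and H2-DMb1 had -0.42. On the other side, H2-Ob, directly beside Tap2, had 0.017, a bound from signals of 16.3 and 17.3 at the edge of detection. The genes after it had -1.03 (H2-Ab1, mean of its probes), -0.69 (H2-Aa) and -0.93 (H2-Eb1). The 4 members in between had values from -0.15 to 0.070. Over the whole interval the median was -0.079 for the 7 members, -0.75 for the 6 measured class II genes and 0.014 for the 59 other measured genes.

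**Figure D4:**
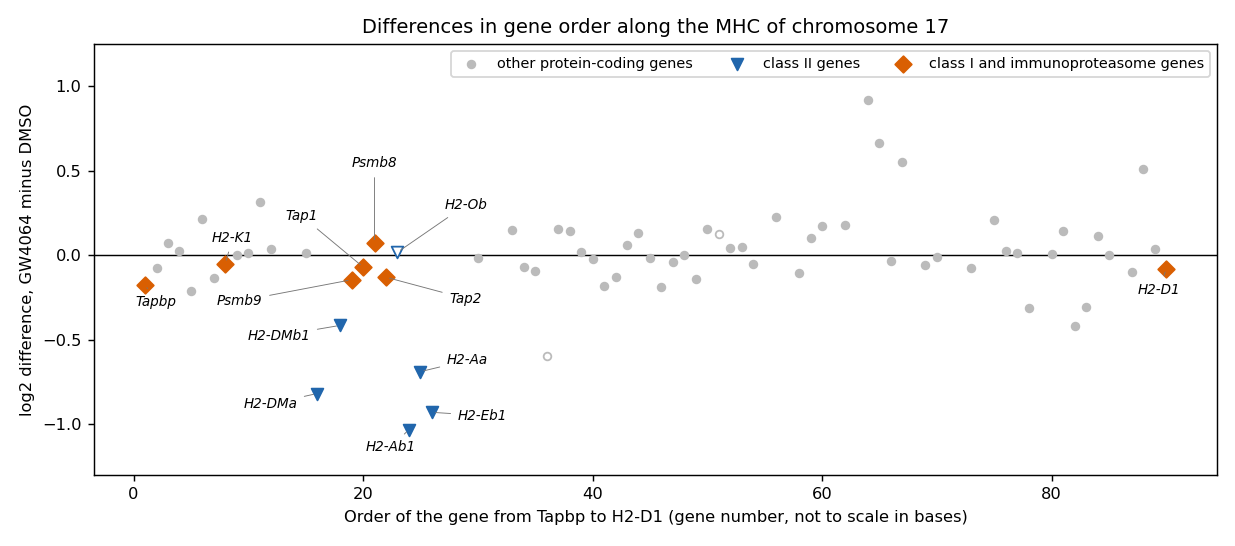
log2 difference (GW4064 minus DMSO) of the 72 measured protein-coding genes from Tapbp to H2-D1 in the order they take on chromosome 17 (gene number, not bases), with orange diamonds for class I and immunoproteasome genes, blue triangles for class II genes, grey circles for the rest and open symbols for bounds. Psmb9, Tap1, Psmb8 and Tap2 lie near 0 among class II genes, of which 5 lie at -0.42 to -1.03 and H2-Ob, a bound, at 0.017.

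Other genes of the class I pathway were read from lists. Of 18 further class I and class I-like chains, 13 were measured, 4 higher and 9 lower, with a median of -0.050 against 0.0068 for all genes. None was 1.5-fold different. H2-T23, the nonclassical chain Qa-1 that NK cell receptors recognise, had signals of 70492 and 75921 and a log2 difference of 0.041. H2-Q7, a nonclassical chain of the Qa-2 group, had signals of 69462 and 70217 and a log2 difference of -0.050. The ends of the list were H2-T10 with 0.26, from signals of 989 and 1240, and Fcgrt with -0.36, from signals of 1781 and 1450. Fcgrt encodes the neonatal Fc receptor, a class I-like chain that binds IgG and albumin and presents no peptide.

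Of 12 other genes of peptide loading and trimming, 9 were higher and 3 lower, with a median of 0.11, or -0.061 when centred on spike-in RNA. None was 1.5-fold different. Calr, the chaperone calreticulin of the loading complex, had the highest value, 0.33, from signals of 51637 and 67934, and 0.16 when centred on spike-in RNA. Pdia3, the disulfide isomerase of the same complex, had 0.13, and Canx, the membrane-bound chaperone calnexin, had 0.099. Both became negative when centred on spike-in RNA. Bcap31, a receptor for export from the endoplasmic reticulum, had the lowest value, -0.16, and Erap1, which trims peptides in the endoplasmic reticulum, had -0.030.

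The rest of the proteasome was also close to 0. Over 41 genes of constitutive subunits, activators and assembly factors outside the members, 25 were higher and 16 lower, with a median of 0.019. The split turned to 18 higher and 23 lower after a loess fit, 15 and 26 after quantile normalization, and 5 and 36 when centred on spike-in RNA, so no direction can be taken for these genes. One was 1.5-fold or more different. This was Psmd3, a subunit of the regulatory cap, with signals of 21707 and 36434 at 1 spot and a log2 difference of 0.68. That spot had 10 others within 300 µm that differed 8-fold or more, and with such areas left out none of the 38 genes still measured was 1.5-fold higher, the highest value being 0.24. The lowest value of the 41 was that of Psma7, a subunit of the core ring, with -0.16. In the list of assembly factors and activators, Psmg1, a chaperone of the core ring, had the highest value with 0.20, and Psme4, another activator, had the lowest with -0.048.

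Among 24 genes of interferon signaling and of class I and class II transcription, 9 were higher and 15 lower, with a median of -0.032. None was 1.5-fold different. Irf7, an interferon-induced transcription factor, had the highest value, 0.51, from signals of 127 and 190. Socs1, an inhibitor of cytokine signaling, had the lowest, -0.53, from signals of 3882 and 2814. Its spot lay in an area of the slide with clustered large differences, with 13 other spots within 300 µm that differed 8-fold or more. Irf1, a factor that acts at class I and immunoproteasome promoters, had signals of 11290 and 10623 and a log2 difference of -0.15.

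The label of the cells was checked by markers. Of 8 macrophage markers, 7 were measured, and Cd68 had no matched probe. Of these 4 were higher and 3 lower, with a median of 0.055. Adgre1 (F4/80) had signals of 44742 and 39339 (log2 difference -0.25), and Csf1r (-0.24) and Mrc1 (-0.34) were lower too. The higher ones were Itgam (0.089), Lyz2 (0.062), Mertk (0.058) and Fcgr1 (0.055). Of 5 B cell markers 2 were measured, and Cd79a and Pax5 were not well above background on either array. Of 6 T and NK cell markers 3 were measured, without Cd3d, Cd8a and Ncr1. Of 7 dendritic cell markers 4 were measured, without Xcr1, Clec9a and Cd209a. Their summed signal of 186661 and 159265 was nearly all Itgax, a gene macrophages also express, with a log2 difference of -0.30. Ccr7 was lower too (-0.60), while Zbtb46 (0.44) and Flt3 (2.31) were higher. The Flt3 value is a bound from 1 spot that was not well above background with DMSO. Over the settings run, Flt3 lay between 0.72 and 2.36, Zbtb46 between 0.097 and 0.50 and Ccr7 between -0.77 and -0.087. Ccr7, Flt3 and Zbtb46 were all dim, and the Flt3 spot had 3 others within 300 µm that differed 8-fold or more. The summed signal of 7 of 8 stromal cell markers went from 17379 to 9803 and that of 4 of 5 neutrophil markers from 13284 to 8602. That of the 2 measured B cell markers went from 318 to 244. The sums of the measured macrophage markers (138078 to 126738) and T and NK cell markers (1602 to 1496) were lower too. All of these sums, that of the dendritic cell markers included, moved in the direction of the class II genes. A sum follows its brightest genes, and Cd4 alone had 1303 and 1228 of the T and NK cell sum. Gene by gene, 6 of 7 stromal cell and 4 of 4 neutrophil markers were lower, against 48.2% of all genes. So were 2 of 2 B cell and 2 of 3 T and NK cell markers. The exceptions were Pdgfra (0.065) and Cd3e (0.18). The part of these cell types in the class II difference was not tested. In bulk RNA, fewer cells of a type and less RNA per cell cannot be told apart. The summed signal of the 10 members was 409602 with DMSO and 426223 with GW4064. Like the other sums, it is before scaling, and the GW4064 array was slightly brighter (75th percentile 1265 against 1209). After scaling, the median log2 difference of the members was -0.060, with 7 of 10 lower.

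The members' small values were also set against genes of like brightness, since bright spots vary less. As bright as Psmb9 or brighter were 8 of the 10 members and 2155 genes in all. Of these 2155 genes, 90% lay between -0.25 and 0.32, as did all 8 members. The size of the differences of these 8 members was thus an ordinary one for genes of like brightness on these arrays. Of the 13532 genes measured, 65.1% lay within the range that the members spanned, a range that the members themselves set.

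**Figure D5:**
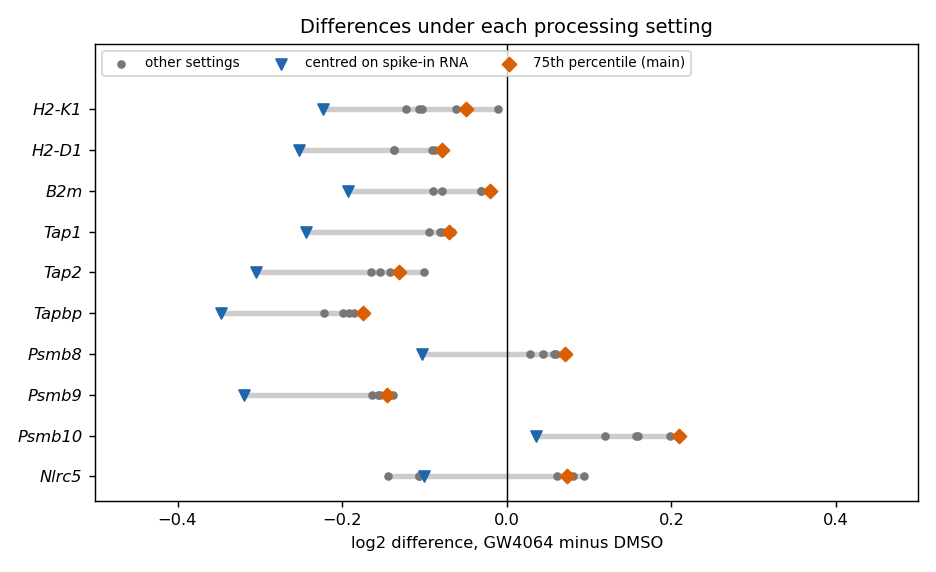
log2 difference (GW4064 minus DMSO) of each of the 10 genes under 12 processing settings, or 11 for H2-D1 and Psmb9, which have no spot left once areas with clustered large differences are left out. Orange diamonds mark the setting used in the text, blue triangles centring on spike-in RNA, and all values lie between -0.35 and 0.21.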

How the data were processed

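RNA of 1 DMSO and 1 GW4064 culture was read on 1-colour Agilent arrays of 1 slide. One free-text label of the GW4064 sample repeats that of the DMSO sample; its other labels name GW4064. The authors deposited the intensity of each spot, background-subtracted and detrended by Feature Extraction 10.7.1.1, without scaling between arrays. A log2 table of both arrays was deposited as well. Its differences matched those from the intensities apart from a constant of 0.0022. The medians of its columns were 0.035 (DMSO) and -0.051 (GW4064), and its probe baseline is unknown.

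Here the log2 intensity minus the 75th percentile of non-control spots was taken. Spots marked as non-uniform or as outliers (399 and 207) were left out. Where only 1 array had a probe well above background, the other took the lowest such value on that array, or the probe's own if higher, which makes the difference a bound. Probes below background on both were left out, and probes of 1 gene were averaged. Symbols came from RefSeq accessions of GRCm38.p6 (26581 probes matched). The text names all members, the class II genes, the constitutive counterparts, and of other pathway lists genes past 1.5-fold and the extremes. Cell type markers are given as counts and summed signals instead, with single values for only some of them, a departure from that rule. A few further genes of these lists were named after their values were seen. Members and lists were chosen with earlier results of these data known. The functions were tested on simulated data. Alternatives were other scalings, the deposited table, normexp (offset 50), filters, marked spots kept, the brightest probe, lower thresholds, and leaving out areas where 2 or more other spots within 300 µm differed 8-fold. Python 3.11.15, pandas 2.3.3, R 4.3.3 and limma 3.58.1 were used.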

Additional observations from a re-analysis of the deposited data

How the results depend on the processing

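No paired analysis was possible because there is only 1 array per group. The counts of members 2-fold or more higher (0) and lower (0) were 0 under every setting that was run and at both lower thresholds in the setting used. Centring on spike-in RNA, which moved the median of all genes to -0.17, gave medians of -0.23 for the members, -0.88 for class II, -0.22 for the other class I chains, -0.061 for loading and trimming, -0.16 for constitutive subunits, activators and assembly, -0.15 for the other proteasome subunits and -0.21 for the interferon list. It also gave 9 of 10 members a lower value, with 1 member, Tapbp, below a log2 difference of -0.32. The normexp correction gave -0.62 for class II, which is the value of H2-Aa under that correction. The median of -0.71 in the setting used was the value of Ciita, which became -0.35 under the correction. The correction adds an offset of 50 to each signal, and Ciita had a signal of 23.6 with DMSO. Under it, 72 of all genes were 2-fold or more higher and 64 lower, against 276 and 367 in the setting used. Why the value of Ciita moved was not tested. Of the 12 member probes, 5 had a spot in an area with clustered 8-fold differences, and H2-D1 and Psmb9 could not be measured without these areas. The other 8 members then had a median of -0.060.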

Other observations

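Between Tapbp and H2-D1, 3 genes that belong to neither class were 1.5-fold or more different, chosen for description after their values were seen. Sapcd1 had signals of 20.5 and 40.5, a log2 difference of 0.92, and its only spot lay in an area with clustered 8-fold differences. Its neighbour Msh5, a meiotic mismatch repair gene, had signals of 45.0 and 74.7 and a log2 difference of 0.66. Ager, the receptor for advanced glycation end products, was at least 1.51-fold lower, from a signal of 21.9 with DMSO. All 3 were dim, and after the normexp correction their values were 0.14, 0.16 and -0.22.

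Also in this interval, Aif1, a macrophage gene that encodes IBA1, had signals of 7533 and 5889 and a log2 difference of -0.42. Its neighbour Lst1, another leukocyte gene, had -0.31 as the mean of its 2 probes. Both were lower under the normexp correction too, with -0.51 and -0.33. With 1 array per group these are values without a test.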
